A study of Homo sapiens with 6 samples.

Results

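The genes described here are those of the human mitochondrial genome, taken as every row of the expression table whose symbol starts with MT-. The rule found 37 of 31368 genes, namely 13 protein genes, 2 rRNA genes and 22 tRNA genes. Of these, 28 are heavy strand genes and 9 are light strand genes. 36 of the 37 had at least 1 FPKM (reads scaled to the gene's length and the library's total) in at least 3 libraries and could be tested. The exception was MT-TF, the tRNA for phenylalanine. The libraries came from CAL27, an established line of human oral squamous cell carcinoma cells. 3 libraries were from cells kept with 10 mM lactate for 24 hours, and 3 were from CAL27 cells that received no treatment. RNA was selected with oligo-dT beads. The sources used here do not give the form of the lactate, the pH of the medium or whether replicates were separate cultures. The p-values therefore measure the spread between these libraries, which may be technical.

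Mitochondrial DNA is a small circle transcribed on both strands into long precursor RNAs. The tRNAs lie between most of the rRNAs and mRNAs, and excision of the tRNAs releases their neighbours. The mRNAs encode core subunits of the respiratory chain and the ATP synthase. Most of the mRNAs are then polyadenylated, and in several of them the added A residues complete the stop codon. The rRNAs carry short oligo(A) tails, and mature tRNAs and the MT-ND6 mRNA are known to lack a poly(A) tail. Their values here are those of molecules that passed an oligo-dT selection.

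The denominators behind the FPKM values were 30957477 to 40220226 reads per lactate library and 25163374 to 33297625 per untreated library. Whole reads could be recovered for all 37 genes, with a deviation of at most 0.000122 reads. They came to between 2576018 and 3186679 mitochondrial reads per lactate library, and between 2093173 and 2781789 per untreated library. All 8 epithelial markers had a mean of at least 1 FPKM, with group means from 2.02 to 602 FPKM. Their sums were 923 to 942 FPKM in lactate and 943 to 959 in untreated libraries. Of 7 markers of other cell types, 5 had a row, and CDH5, an endothelial cadherin, was the only one to reach 1 FPKM in a group mean (0.992 FPKM in lactate and 1.22 in untreated libraries). The summed level of those 5 was 1.77 to 1.95 FPKM in lactate and 1.77 to 2.04 in untreated libraries. The part of either list in the results below was not tested.

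The mitochondrial genome as a whole held a similar share of the libraries in both groups, while the shares of its rRNA and tRNA classes were apart between groups. All 37 genes together held 24.9%, 22.9% and 23.1% of FPKM in lactate replicates 1 to 3, against 23.8%, 22.2% and 22.3% in untreated replicates 1 to 3. The groups overlapped, and the difference of 0.861 percentage points did not pass (exact two-sided permutation p = 0.5). As a share of reads the values were 8.32% ± 0.510 in lactate and 8.33% ± 0.399 in untreated libraries (SD, n = 3 each; exact permutation p = 1). The protein genes held 20.5% ± 1.11 of FPKM in lactate and 20.5% ± 0.857 in untreated libraries. The rRNA genes held 1.04% ± 0.0183 in lactate and 0.691% ± 0.0118 in untreated libraries, with no overlap between the groups. The tRNA genes held 2.05% ± 0.0176 in lactate and 1.57% ± 0.0235 in untreated libraries, again with no overlap. As a share of reads the tRNA genes held only 0.0576% ± 0.00044 in lactate and 0.0452% ± 0.00094 in untreated libraries. The exact permutation p was 0.1 for each of these 2 classes, which is the smallest that 3 libraries against 3 can give. In bulk RNA, fewer cells carrying a transcript and less of it per cell cannot be told apart.

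Each gene was then tested with limma on log2(FPKM + 1), with p-values adjusted over all 11792 genes tested. 9 mitochondrial genes were higher with lactate, 5 were lower and 22 did not pass. The 14 that passed are 38.9% of the 36 tested, and the background was high: 58.6% of all genes tested passed, 27.7% higher and 30.9% lower. The median log2 difference was 0.03 over the 36 mitochondrial genes and -0.02 over all genes tested. By class, 2 of 2 rRNA genes were higher. Of 13 protein genes, 3 were higher and 4 lower, and of 21 tested tRNA genes 4 were higher and 1 lower. Quantile normalization gave 11 mitochondrial genes higher and 3 lower, and scaling each library to its sum of recovered reads turned the split over all genes from 3265 higher and 3649 lower into 4162 higher and 2579 lower.

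**Figure D1:**
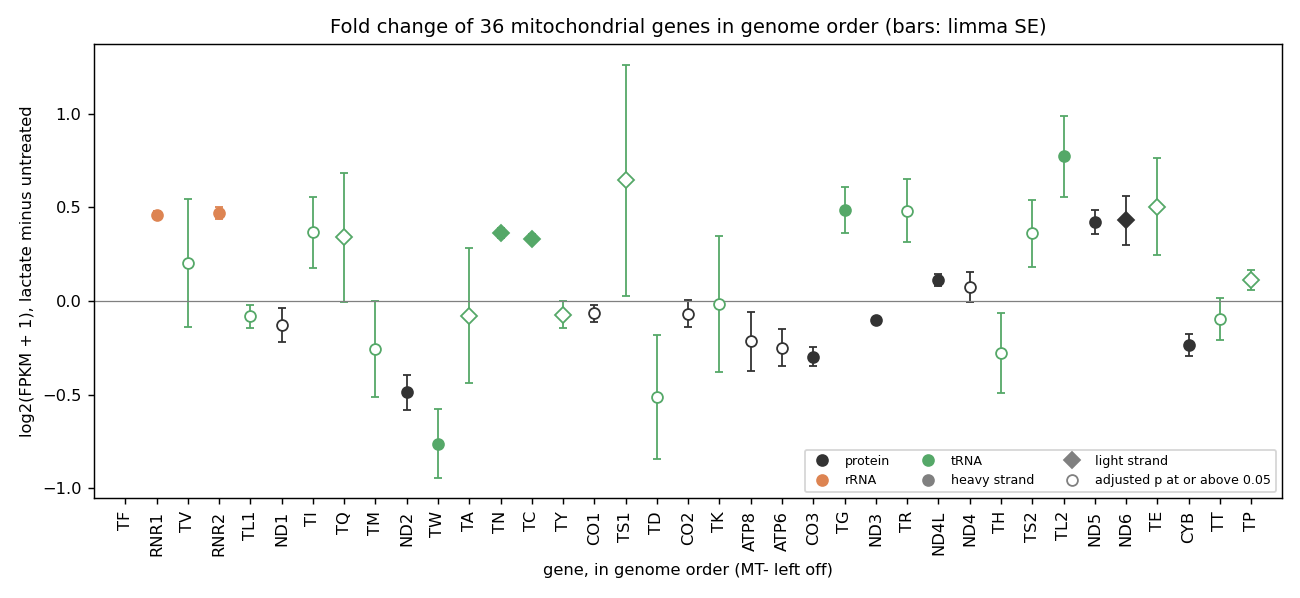
Difference in log2(FPKM + 1), lactate minus untreated, for the 36 tested mitochondrial genes in genome order, with limma's standard error as bars. Both rRNA genes lie near 0.46 and 0.47, the protein genes spread from -0.49 to 0.43, and the widest bars belong to tRNA genes with few reads. MT-TF was not tested and has no point.

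The 2 rRNAs, the RNA cores of the mitochondrial ribosome, rose by nearly the same amount. MT-RNR1, the 12S rRNA of the small subunit (chromosome M, 648 to 1601, GRCh38), stood at 1246, 1214 and 1226 FPKM in lactate replicates 1 to 3, against 918, 871 and 888 FPKM in untreated replicates 1 to 3. MT-RNR2, the 16S rRNA of the large subunit (chromosome M, 1671 to 3229), stood at 3072, 2847 and 2897 FPKM in lactate libraries, against 2194, 2068 and 2102 in untreated ones. For both rRNAs every lactate library was above every untreated library. The log2 difference was 0.46 for MT-RNR1 (SE 0.022; limma adjusted p = 1.23e-05) and 0.47 for MT-RNR2 (SE 0.034; limma adjusted p = 5.80e-05). The ratio of MT-RNR2 to MT-RNR1 was 2.39 ± 0.0644 in lactate and 2.38 ± 0.0115 in untreated libraries (SD, n = 3 each; exact permutation p = 1). The summed rRNA level over the summed protein gene level was 0.0505 ± 0.00183 in lactate and 0.0337 ± 0.000921 in untreated libraries, a 1.496-fold difference with no overlap (exact permutation p = 0.1, adjusted p = 0.125 over the 5 ratios computed).

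The protein genes were the most abundant class. MT-CO1, the catalytic subunit of cytochrome c oxidase, ranked 1 among all genes in each of the 6 libraries, and 8 of the 10 highest genes in every library were mitochondrial. In order of mean FPKM with lactate, MT-CO1 was followed by MT-CO2, MT-CO3, MT-ATP6, MT-ND4L, MT-ND4, MT-ND3, MT-CYB, MT-ND2, MT-ND1, MT-ND6, MT-ND5 and MT-ATP8. Untreated libraries differed from that order in placing MT-CO3 above MT-CO2 and MT-ATP8 above MT-ND6 and MT-ND5. The ranges of MT-CO2 and MT-CO3 overlapped in both groups, as did those of MT-ND6 and MT-ND5 and those of MT-ND4L and MT-ND4. MT-ATP6 overlapped MT-ND4L and MT-ND5 overlapped MT-ATP8 in lactate libraries only, and MT-ATP8 overlapped MT-ND6 as its neighbour in the untreated order.

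**Figure D2:**
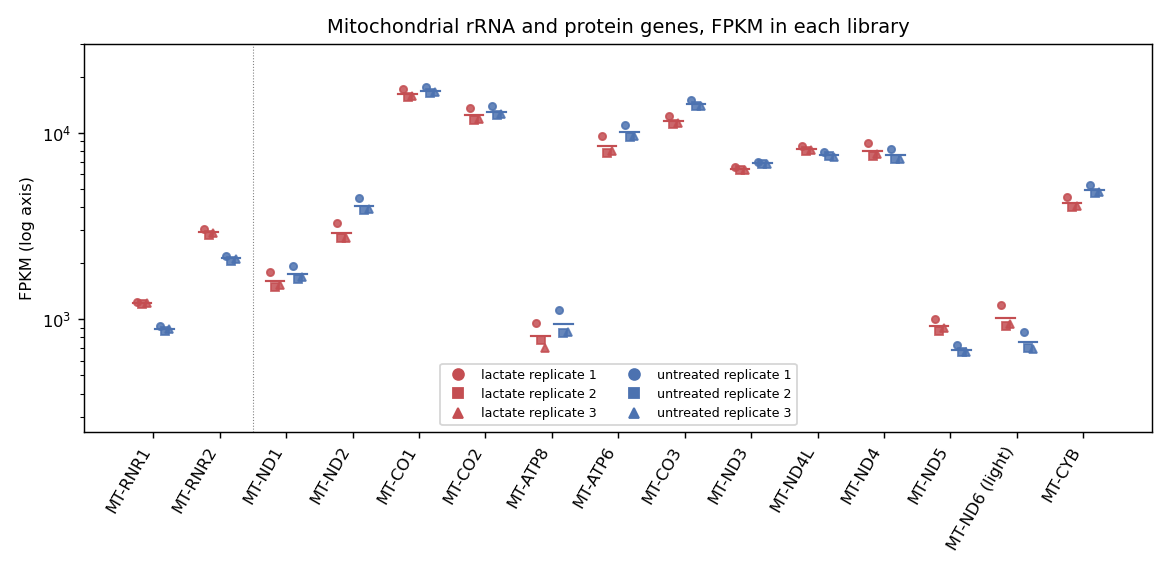
FPKM of the rRNA and protein genes in each library on a log axis, in genome order, with lactate left of untreated and group means as lines. The groups separate upward for MT-RNR1, MT-RNR2, MT-ND4L, MT-ND5 and MT-ND6 and downward for MT-ND2, MT-CO3, MT-ND3 and MT-CYB, and replicate 1 is the highest library of its group at every protein gene.

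In respiratory complex I, the NADH dehydrogenase, the 7 mitochondrial subunits did not move together: 3 were higher, 2 lower and 2 did not pass. Over all genes tested, 27.7% were higher and 30.9% lower, so these counts alone do not set complex I apart. MT-ND5, which encodes one of the proton-pumping membrane subunits, had 999.5, 867.8 and 896 FPKM in lactate replicates 1 to 3, against 728, 666 and 667 FPKM in untreated replicates 1 to 3. Its log2 difference was 0.42 (SE 0.063; limma adjusted p = 0.00202). MT-ND6, the only protein gene of the light strand, had 1192, 919 and 942 FPKM in lactate libraries, against 857, 705 and 696 in untreated ones. The groups did not overlap for either gene, and MT-ND6 differed by 0.43 (SE 0.13; limma adjusted p = 0.0338). That call was lost without lactate replicate 1 or 3, without untreated replicate 2 or 3, with voom and when all genes were kept, at adjusted p-values of 0.0524 to 0.0971. MT-ND5 and MT-ND6 end against each other on opposite strands, at positions 14148 and 14149 of chromosome M. The sources used here do not say whether reads were counted by strand, so reads of a gene and those of its opposite strand cannot be told apart. MT-ND4L, a small membrane subunit, had 8528, 7989 and 8065 FPKM with lactate, against 7866, 7505 and 7397 without. Its log2 difference of 0.11 (SE 0.032; limma adjusted p = 0.0219) was the smallest of the 9 that rose, and it no longer passed without untreated replicate 2 or 3, under quantile normalization or median centring, with no filter on low values, or with voom (adjusted p of 0.0554 to 0.123).

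The complex I subunits that fell were MT-ND2 and MT-ND3, both membrane subunits. MT-ND2 had 3272, 2724 and 2743 FPKM in lactate libraries, against 4466, 3865 and 3904 in untreated ones, with no overlap. The log2 difference was -0.49 (SE 0.093; limma adjusted p = 0.00639), the largest fall of any protein gene of the mitochondrial genome. MT-ND3 was at 6552, 6314 and 6322 FPKM with lactate, against 6976, 6812 and 6827 without, a log2 difference of -0.10 (SE 0.018; limma adjusted p = 0.00214). That small difference was not called when libraries were scaled to their sums of recovered reads or under quantile normalization. MT-ND1 averaged 1605 ± 161 FPKM in lactate and 1752 ± 152 in untreated libraries (SD, n = 3 each). MT-ND4 averaged 8007 ± 716 FPKM in lactate and 7588 ± 536 in untreated libraries. Neither passed, with limma adjusted p-values of 0.278 for MT-ND1 and 0.446 for MT-ND4.

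Of the protein genes outside complex I, 2 fell and none rose, where 30.9% of all genes tested fell and 27.7% rose. MT-CO3, a structural subunit of cytochrome c oxidase, had 12353, 11198 and 11307 FPKM in lactate replicates 1 to 3, against 15023, 13871 and 13919.7 FPKM in untreated replicates 1 to 3. MT-CYB, cytochrome b of complex III, had 4506, 4020.25 and 4059.6 FPKM in lactate libraries, against 5254, 4764 and 4809 in untreated ones. All 3 lactate libraries were below all 3 untreated ones for both genes. The log2 difference was -0.30 for MT-CO3 (SE 0.049; limma adjusted p = 0.00303) and -0.24 for MT-CYB (SE 0.058; limma adjusted p = 0.0149). MT-CO1 averaged 16118 ± 854 FPKM in lactate and 16867 ± 711 in untreated libraries and did not pass (limma adjusted p = 0.264). MT-CO2, which carries the copper centre that accepts electrons from cytochrome c, averaged 12409.5 ± 1010 FPKM with lactate and 13001 ± 804 without, and did not pass either (limma adjusted p = 0.446). Its log2 difference of -0.07 turned to 0.11 under quantile normalization. The call of MT-CYB was lost under quantile normalization. The ATP synthase genes MT-ATP6 and MT-ATP8 had log2 differences of -0.25 and -0.22, with limma adjusted p-values of 0.0769 and 0.286. Without lactate replicate 1, MT-ATP6 passed (0.0151). They overlap by 46 bases, so reads in that stretch may belong to either.

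A share of mitochondrial reads does not depend on how the libraries were scaled against each other, and this measure was added after the values had been seen. Of the 15 rRNA and protein genes, 6 had a larger share in every lactate library than in any untreated one, 4 had a smaller share and 5 overlapped. The 10 that did not overlap are close in proportion to the 65.5% of all genes tested whose FPKM did not overlap. MT-ND5 held 2.04% ± 0.0247 of mitochondrial reads in lactate and 1.45% ± 0.00399 in untreated libraries (SD, n = 3 each). MT-ND2 held 3.70% ± 0.142 with lactate and 4.93% ± 0.136 without. MT-CO3 held 11.1% ± 0.133 with lactate and 13.0% ± 0.108 without. MT-CO1 held 30.3% ± 0.418 with lactate and 30.2% ± 0.354 without, so its groups overlapped. MT-ND4, which did not pass in FPKM, held 13.5% ± 0.289 with lactate and 12.1% ± 0.199 without, and MT-ATP6 held 7.03% ± 0.331 with lactate and 7.95% ± 0.242 without. For both of these genes the shares did not overlap between groups. MT-ND3, which passed in FPKM, did overlap, at 2.71% ± 0.121 with lactate and 2.77% ± 0.110 without. The 10 genes that did not overlap all had an exact permutation p of 0.1, and 0.15 after adjustment over the 15 genes. That is the smallest p that 3 libraries against 3 can give, so no gene could pass 0.05 by this test.

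How the annotated coding sequence ends varies between these genes, and its final bases are printed for the 7 protein genes that passed. The end of a coding sequence need not be the end of the RNA. MT-ND4L overlaps MT-ND4 by 7 bases, and MT-ATP8 overlaps MT-ATP6 by 46. The sequences are from GENCODE 29 transcripts (GRCh38), last 30 bases, with the final codon or the part of a codon in capitals.
MT-ND2: ctatctccccttttatactaataatcttaT
MT-CO3: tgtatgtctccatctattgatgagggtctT
MT-ND3: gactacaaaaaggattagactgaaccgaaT
MT-CYB: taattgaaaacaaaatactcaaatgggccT
MT-ND4L: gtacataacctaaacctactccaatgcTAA
MT-ND5: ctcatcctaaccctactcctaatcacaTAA
MT-ND6: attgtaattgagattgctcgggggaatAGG
The 4 that fell end in a lone T, which polyadenylation extends to a stop codon, and the 3 that rose end in a complete codon. This grouping was chosen after the values had been seen and was given no test. Of all 13 annotated coding sequences, 6 have an incomplete stop codon, and of these genes 0 were higher, 4 lower and 2 did not pass. The other 7 have a complete one, of which 3 were higher, 0 lower and 4 did not pass, where 27.7% of all genes tested were higher and 30.9% lower. MT-ATP6 is among the 7, but its last base, 9207, is also the first of MT-CO3. An RNA cut before MT-CO3 would lack that base, and the counts with MT-ATP6 moved to the incomplete group were not made. Without lactate replicate 1, MT-CO1 and MT-ATP6, which have complete annotated stop codons, were called lower (limma adjusted p = 0.0424 and 0.0151). With the replicate number as a block, MT-CO1, MT-CO2, MT-ATP6 and MT-ATP8, all with complete annotated stop codons, were called lower. In that fit MT-ND1, with an incomplete one, was also called lower, and MT-ND4, with a lone T, higher. Quantile normalization lost the calls of MT-CYB and MT-ND3 and called MT-CO2 higher. The split therefore does not hold in every fit. The median log2 difference was -0.18 for the 6 and -0.07 for the 7. The ranges overlapped, from -0.49 to 0.08 for the incomplete and from -0.25 to 0.43 for the complete group. The value of -0.25 is that of MT-ATP6. MT-ND4 is an exception, with a final T and a log2 difference of 0.08.

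The tRNA genes split sharply by level. 4 light strand genes, MT-TC, MT-TN, MT-TP and MT-TY, had at least 284 FPKM in every library, and the highest value of any other tRNA gene was 62.8 FPKM (MT-TH, the tRNA for histidine, in untreated replicate 2). The genes are 59 to 75 bases long, so a few reads weigh heavily. The sources used here do not say how reads across adjoining genes were counted, and these levels may depend on it. 1 read in a 70-base gene was worth 0.355 to 0.461 FPKM in lactate and 0.429 to 0.568 FPKM in untreated libraries. The genes of the 5 tRNAs that passed are printed from GENCODE 29 (GRCh38), 5′ to 3′ in the sense of the tRNA, with the anticodon in capitals.
MT-TC: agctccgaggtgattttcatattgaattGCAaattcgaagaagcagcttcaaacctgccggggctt
MT-TN: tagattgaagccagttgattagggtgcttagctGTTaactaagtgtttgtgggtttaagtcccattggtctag
MT-TG: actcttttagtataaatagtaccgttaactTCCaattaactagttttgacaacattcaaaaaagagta
MT-TL2: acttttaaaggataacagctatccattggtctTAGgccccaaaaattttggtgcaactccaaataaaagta
MT-TW: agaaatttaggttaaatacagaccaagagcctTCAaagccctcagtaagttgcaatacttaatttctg
MT-TC and MT-TN lie 31 bases apart on the light strand, whereas MT-TG, MT-TL2 and MT-TW are heavy strand genes without a gap to a neighbouring mRNA gene.

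**Figure D3:**
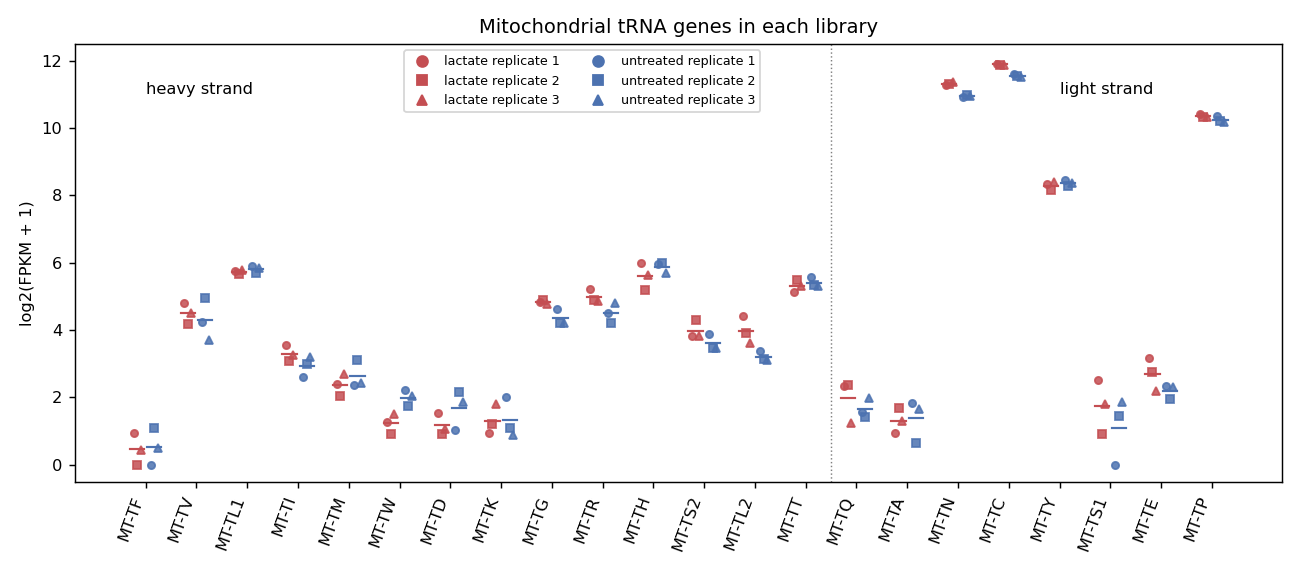
log2(FPKM + 1) of the 22 tRNA genes in each library, heavy strand genes on the left and light strand genes on the right, with lactate left of untreated and group means as lines. MT-TC, MT-TN, MT-TP and MT-TY stand above all others, and the lactate libraries of MT-TC and MT-TN lie above the untreated ones.

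Of the 8 light strand tRNA genes, 2 rose and 6 did not pass. MT-TC, the tRNA for cysteine, stood at 3868, 3758 and 3766 FPKM in lactate replicates 1 to 3, against 3127, 2979 and 2949.5 FPKM in untreated replicates 1 to 3. MT-TN, the tRNA for asparagine, stood at 2468, 2552 and 2639 FPKM with lactate, against 1954, 2035 and 1964 without. Every lactate library was above every untreated library at both genes. The log2 difference was 0.33 for MT-TC (SE 0.024; limma adjusted p = 4.30e-05) and 0.36 for MT-TN (SE 0.027; limma adjusted p = 4.96e-05). These calls rest on 26057 reads with lactate and 17268 without for MT-TC, and on 19451 and 12549 for MT-TN. MT-TP, the tRNA for proline, averaged 1319 ± 55.4 FPKM in lactate and 1222 ± 79.7 in untreated libraries and did not pass (limma adjusted p = 0.116). MT-TP was called higher under quantile normalization, both scalings to recovered reads and voom, and without untreated replicate 1, with adjusted p-values of 0.00796 to 0.0240. Its share of mitochondrial reads was 0.110% ± 0.00313 with lactate and 0.0965% ± 0.00117 without, with no overlap. MT-TY, the tRNA for tyrosine, overlaps MT-TC by 1 base but differed by -0.07 and did not pass (limma adjusted p = 0.419). The remaining light strand tRNA genes, MT-TQ, MT-TA, MT-TS1 and MT-TE, held at most 40 reads over the 3 lactate libraries and 22 over the 3 untreated ones. Their log2 differences were 0.34, -0.08, 0.64 and 0.50, none of which passed, and MT-TS1 had 0 reads in untreated replicate 1, which allows up to 1.54 FPKM.

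Of the 13 tested heavy strand tRNA genes, 2 rose, 1 fell and 10 did not pass. MT-TL2, which reads CUN leucine codons, had 20.5, 14.1 and 11.2 FPKM in lactate libraries, against 9.46, 7.84 and 7.61 in untreated ones. MT-TG, the tRNA for glycine, had 27.6, 29.1 and 26.7 FPKM in lactate libraries, against 23.9, 17.5 and 17.7 in untreated ones. The groups did not overlap for either tRNA, with log2 differences of 0.77 for MT-TL2 (SE 0.22; limma adjusted p = 0.0255) and 0.49 for MT-TG (SE 0.12; limma adjusted p = 0.0173). Both calls were lost without lactate replicate 2 or untreated replicate 2, and that of MT-TL2 also without untreated replicate 3 and with no filter on low values. MT-TL2 lies directly before MT-ND5, whose level also rose, and MT-TG lies between MT-CO3 and MT-ND3, whose levels fell.

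MT-TW, the tRNA for tryptophan, had 1.43, 0.894 and 1.83 FPKM in lactate libraries, against 3.64, 2.34 and 3.09 in untreated ones. Its log2 difference was -0.76 (SE 0.18; limma adjusted p = 0.0134), but it rests on 10 reads with lactate and 18 without. The ratio of these reads per denominator was 0.463, with an exact 95% interval of 0.191 to 1.06 that covers counting error only, and voom on the recovered reads did not call it (adjusted p = 0.0561), while calling 62.7% of all genes. MT-TR, the tRNA for arginine, had 36.3, 29 and 27.9 FPKM with lactate, against 21.8, 17.7 and 26.8 without. Its groups did not overlap, yet the log2 difference of 0.48 did not pass (limma adjusted p = 0.0546). MT-TR was called under quantile normalization, both scalings to recovered reads and the correction for gene length and GC content, and without untreated replicate 3. The other heavy strand tRNA genes that did not pass, MT-TV, MT-TL1, MT-TI, MT-TM, MT-TD, MT-TK, MT-TH, MT-TS2 and MT-TT, had log2 differences from -0.51 for MT-TD to 0.37 for MT-TI. MT-TL1, the other leucine tRNA, averaged 52.4 FPKM in lactate and 55.6 in untreated libraries. Non-overlap in either direction held for 15 of the 36 mitochondrial genes, against 65.5% of all genes tested. MT-TF had 2, 0 and 1 reads in lactate replicates 1 to 3, against 0, 2 and 1 in untreated replicates 1 to 3, and is at the detection limit. In lactate replicate 2, a count of 0 allows up to 1.28 FPKM.

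The 2 ratios of light strand to heavy strand genes were higher in every lactate library than in any untreated one. These were MT-ND6 over the heavy strand protein genes and the light strand over the heavy strand tRNA sum. Neither includes the heavy strand rRNAs, which differed by 0.46 and 0.47 on the log2 scale. Of the 9 light strand genes, 7 had a log2 difference above 0, and MT-TY and MT-TA were at -0.07 and -0.08. The strand of the reads is not known, so these are levels of annotated genes and not of strands. MT-ND6 differed by 0.43 on the log2 scale and MT-ND5, which ends against it, by 0.42. Whether reads of MT-ND5 RNA add to MT-ND6 was not tested. The light strand held 3 genes that rose and 0 that fell of 9 tested, and the heavy strand held 6 that rose and 5 that fell of 27. Over all genes tested 27.7% rose and 30.9% fell, so these counts alone do not set either strand apart. MT-ND6 over the summed heavy strand protein genes was 0.0135, 0.0118 and 0.0119 in lactate replicates 1 to 3, against 0.00910, 0.00823 and 0.00809 in untreated replicates 1 to 3. These did not overlap and differed 1.46-fold. The summed light strand tRNA level over that of the heavy strand was 29.8 ± 2.19 in lactate and 25.6 ± 1.03 in untreated libraries (SD, n = 3 each), a 1.16-fold difference. Here too the groups did not overlap, and MT-TC and MT-TN make up most of the light strand sum. The size of this tRNA ratio may depend on how reads across adjoining genes were counted. The summed tRNA level over that of the protein genes was 0.1002 ± 0.00577 in lactate and 0.0764 ± 0.00229 in untreated libraries. Each of these 3 ratios had an exact two-sided permutation p of 0.1, the smallest the design allows, and 0.125 after adjustment over the 5 ratios.

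**Figure D4:**
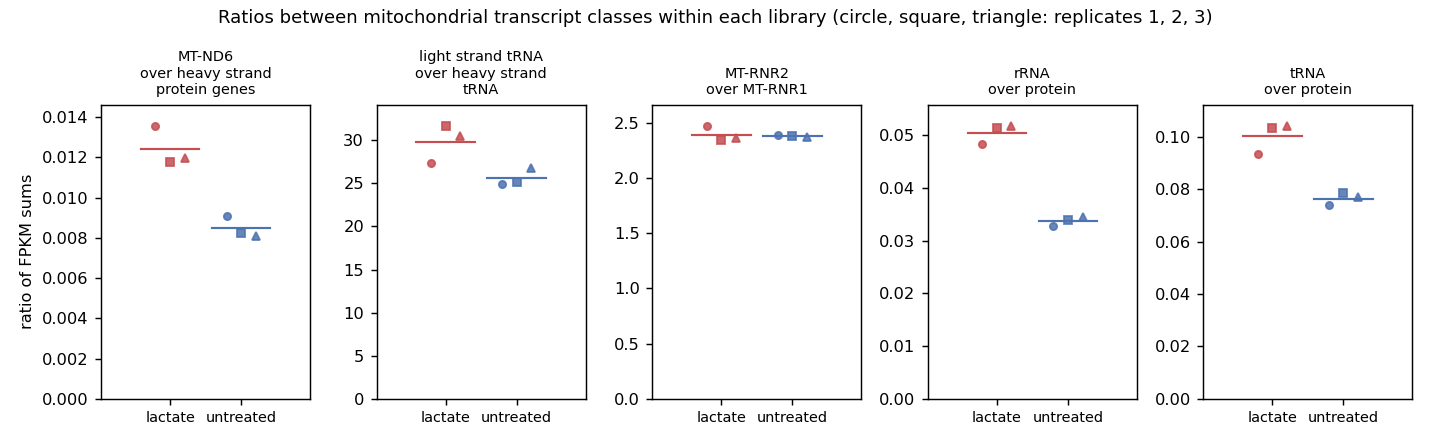
Ratios of summed FPKM between mitochondrial transcript classes in each library, with lactate left of untreated, group means as lines and a separate axis from 0 for each ratio. Circles, squares and triangles are replicates 1, 2 and 3. The groups are apart in 4 ratios and overlap for MT-RNR2 over MT-RNR1.

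Nuclear DNA holds copies of mitochondrial sequence, whose reads can be hard to tell from those of the mitochondrial genes. The table had 60 such copies by symbol, of which 7 could be tested, with 0 higher and 2 lower. The shares over all genes tested were 27.7% higher and 30.9% lower. MTND2P28 on chromosome 1 (629640 to 630683, GRCh38) is 98.4% identical to MT-ND2 over 1042 bases. It averaged 536 ± 20.5 FPKM in lactate and 713 ± 28.8 in untreated libraries, a log2 difference of -0.41 (SD, n = 3 each; limma adjusted p = 0.000138). This level was 18.4% of that of MT-ND2 with lactate and 17.5% without. MTATP6P1 on chromosome 1 (633696 to 634376) is 98.5% identical to MT-ATP6 and averaged 415 ± 38.2 FPKM in lactate and 533 ± 35.8 in untreated libraries, a log2 difference of -0.36 (limma adjusted p = 0.0100). MTCO1P12, 98.6% identical to MT-CO1, averaged 81.4 FPKM with lactate and 114 without and did not pass (limma adjusted p = 0.160). MTND4P12 and MTND4LP30 were at 17 and 1.13 FPKM with lactate, against 17.9 and 1.52 FPKM without. The sources used here do not say how the counting divided reads between copies, so the values of MT-ND2 and MT-ATP6 in particular are uncertain by the levels of their copies.

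The nuclear genes that transcribe, process and maintain mitochondrial RNA changed in both directions. Of 80 tested genes on 6 lists, 18 were higher and 34 lower, where 27.7% and 30.9% of all genes tested were, and the median log2 difference was -0.03. Scaling libraries to their sums of recovered reads gave 25 higher and 30 lower. Of the 10 genes of mitochondrial transcription, 1 rose and 2 fell, a smaller share than the background in either direction. POLRMT, the mitochondrial RNA polymerase, averaged 11.3 ± 0.654 FPKM in lactate and 11.8 ± 0.574 in untreated libraries and did not pass (limma adjusted p = 0.396). TFAM, which bends the promoter DNA and packages the genome, averaged 18.9 ± 0.245 FPKM with lactate and 18.6 ± 0.569 without and did not pass. TFB2M, the factor that opens the promoter, averaged 16.4 ± 0.181 FPKM with lactate and 18.3 ± 0.567 without, a log2 difference of -0.15 (limma adjusted p = 0.00290). MRPL12, a ribosomal protein also reported to bind the polymerase, fell by 0.42 on the log2 scale. MTERF3, a repressor of mitochondrial transcription in mice, rose by 0.24, and the elongation factor TEFM did not pass.

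Of 15 tested genes of DNA replication and maintenance, 4 were higher and 8 lower, with a median log2 difference of -0.11, beside 27.7% higher, 30.9% lower and a median of -0.02 over all genes tested. TWNK, the replicative helicase, averaged 5.74 ± 0.135 FPKM in lactate and 7.39 ± 0.138 in untreated libraries, a log2 difference of -0.32 (limma adjusted p = 0.000139). ATAD3A and ATAD3B, membrane ATPases linked to nucleoids, fell by 0.32 and 0.38, and the topoisomerase TOP3A fell by 0.19. RRM2B, a ribonucleotide reductase subunit that supplies nucleotides outside S phase and is a p53 target, averaged 6.68 ± 0.431 FPKM with lactate and 4.81 ± 0.189 without, a log2 difference of 0.40. The polymerase accessory subunit POLG2, the nuclease MGME1 and the nuclease-helicase DNA2 rose by 0.13, 0.10 and 0.19.

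The factors that cut, tail and stabilise the transcripts were also mixed. Of 10 genes of cleavage and polyadenylation, 1 was higher and 4 lower, beside 27.7% and 30.9% of all genes tested. In the RNase P complex, which cuts at the 5′ end of tRNAs, TRMT10C rose by 0.16 while HSD17B10 fell by 0.30 on the log2 scale. ELAC2, which cuts at the 3′ end of tRNAs, averaged 13.9 ± 0.304 FPKM in lactate and 16.4 ± 0.608 in untreated libraries, a log2 difference of -0.22 (limma adjusted p = 0.00100). FASTKD5 and TBRG4, RNA-binding proteins of the FASTK family, fell by 0.11 and 0.20. FASTKD5 was not called in several alternatives, scaling to recovered reads among them (limma adjusted p = 0.376). Of 10 genes of transcript stability and decay, 5 were higher and 3 lower, with a median log2 difference of 0.11, beside the same 27.7% higher and 30.9% lower. LRPPRC, which stabilises mitochondrial mRNAs, averaged 5.80 ± 0.117 FPKM with lactate and 5.05 ± 0.114 without, a log2 difference of 0.17. With each library corrected for gene length and GC content it stood at -0.0051 (limma adjusted p = 0.896). Its partner SLIRP was lower, at 20.6 ± 0.0982 FPKM with lactate and 23.5 ± 0.601 without. Of the degradosome, the nuclease PNPT1 rose by 0.24 and its helicase partner SUPV3L1 fell by 0.23. GRSF1 and FASTKD2, RNA granule proteins, rose by 0.15 and 0.24, and FASTK, which protects the MT-ND6 mRNA in mice, fell by 0.20.

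**Figure D5:**
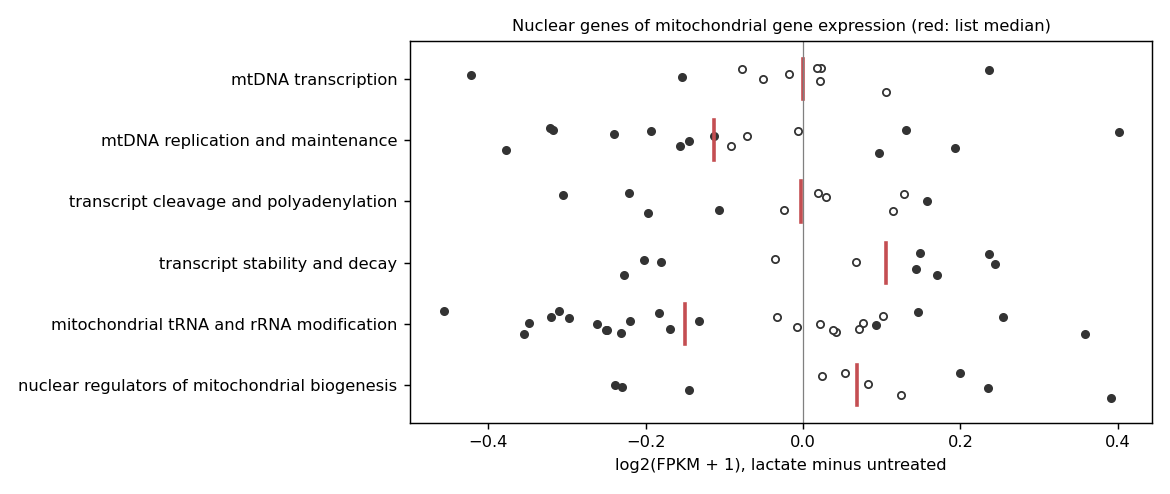
Difference in log2(FPKM + 1), lactate minus untreated, for the tested genes of 6 lists of nuclear genes of mitochondrial gene expression. Each point is 1 gene, filled where the limma adjusted p was under 0.05, and red lines are list medians, which run from -0.15 for tRNA and rRNA modification to 0.11 for transcript stability and decay.

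Among 26 tested genes listed under mitochondrial tRNA and rRNA modification, 4 were higher and 14 lower, with a median log2 difference of -0.15. Beside these stand 27.7% higher, 30.9% lower and a median of -0.02 over all genes tested. The targets of the listed enzymes were not checked. TRUB2, a pseudouridine synthase family member, averaged 9.005 ± 0.108 FPKM in lactate and 12.7 ± 0.231 in untreated libraries, a log2 difference of -0.46 (limma adjusted p = 2.1e-05). MRM3 and NSUN4, which methylate mitochondrial rRNA, fell by 0.35 and 0.25, and the tRNA thiolation enzyme TRMU fell by 0.32. METTL15, a methyltransferase of the 12S rRNA, averaged 4.18 ± 0.0922 FPKM with lactate and 3.04 ± 0.0917 without, a log2 difference of 0.36. OSGEPL1, QTRT2 and TRIT1, which modify tRNAs, rose by 0.25, 0.15 and 0.09. Of 10 tested regulators of mitochondrial biogenesis, 3 were higher and 3 lower, beside 27.7% and 30.9% of all genes tested. NRF1 and ESRRA, transcription factors for nuclear genes of respiration, fell by 0.24 and 0.23, and the coactivator PPRC1 fell by 0.15. PRKAA1, a catalytic subunit of the energy sensor AMPK, averaged 11.8 ± 0.486 FPKM with lactate and 8.76 ± 0.263 without, a log2 difference of 0.39. The deacetylase SIRT1 and GABPA, a transcription factor of respiration genes, rose by 0.23 and 0.20, while PPARGC1A and PPARGC1B were below the level needed for a test. Correcting each library for a trend with gene length and GC content gave 9 higher and 34 lower, and turned TFAM to a log2 difference of -0.13. The 34 shared 27 genes with the 34 that fell, and FASTKD5 and PPRC1 were among those lost. The 9 were all among the 18 that rose, without LRPPRC, GRSF1, FASTKD2, DNA2, QTRT2, TRIT1, GABPA and SIRT1 among those named here.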

How the data were processed

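Poly-A-selected RNA of 6 CAL27 libraries was grouped by the treatment in the labels. The authors deposited FPKM values, made, per the submitters' processing notes, with featureCounts 1.5.0-p3, HISAT2 2.0.5, fastp and StringTie 1.3.3b on hg38. The sources used here do not give the annotation release or strand setting. Whole reads were recovered from the FPKM values to within 0.003 reads for 31366 genes. They summed to 98.0% to 99.1% of the denominators in lactate libraries and 103% to 104% in untreated ones. The groups are apart in this percentage, so every log2 difference depends on which total is used. Scaling to the sums moved the median over all genes tested from -0.02 to 0.04. MT-CO1 moved from -0.066 to 0.004 and MT-ND3 from -0.104 to -0.034.

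The test was limma 3.58.1 (R 4.3.3) with trended, robust variance on log2(FPKM + 1), which understates changes of low genes, over genes that reached 1 FPKM in 3 or more libraries. Benjamini-Hochberg adjusted p-values had a threshold of 0.05. Shares and ratios used exact permutation tests (scipy 1.17.1). Every mitochondrial gene was named, and of each nuclear list up to 4 genes per direction by smallest p, plus POLRMT, TFAM, TFB2M, TEFM, LRPPRC and SLIRP. PPARGC1A, PPARGC1B, CDH5 and the exceptions to the order of levels were named after their values were seen. Of nuclear copies, the 5 with the highest mean were named. The members and lists were chosen with earlier results of these data known. Coordinates and sequences are from GENCODE 29 (GRCh38), which held 30228 of the identifiers. Alternatives were other scalings, filters, a pseudocount of 0.1, voom, a GC and length correction, a replicate block, and each library left out.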

Additional observations from a re-analysis of the deposited data

How the results depend on the processing

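With each library left out in turn, 5 to 10 mitochondrial genes were higher and 5 to 7 lower. The count of 5 higher came without untreated replicate 2, where MT-ND4L, MT-ND6, MT-TG and MT-TL2 no longer passed. Quantile normalization gave 3 lower genes, without MT-CYB and MT-ND3, and turned MT-CO2 to 0.11 (limma adjusted p = 0.000200). That method sets values equal at equal ranks, and mitochondrial genes hold the top ranks. MT-RNR1, MT-RNR2, MT-ND2, MT-ND5, MT-CO3, MT-TN and MT-TC passed in all 11 alternative settings and all 6 leave-one-out fits. Replicate numbers were not taken to pair the libraries, since deviations of same-numbered libraries correlated at 0.0526, 0.0668 and -0.00377 over all tested genes. Over the mitochondrial protein genes they correlated at 0.952, 0.517 and 0.947, but lactate replicate 3 correlated with untreated replicate 2 at 0.964, above its own number. With the replicate number as a block, 11 mitochondrial genes were higher and 10 lower, adding MT-ATP6, MT-ATP8, MT-CO1, MT-CO2 and MT-ND1 to the lower ones and MT-ND4 and MT-TP to the higher ones. The ratios kept their values, with an exact sign-flip p of 0.25 for 4 of them and 1 for MT-RNR2 over MT-RNR1. A p of 0.25 is the smallest that this test can give with 3 pairs. The block left the difference in mitochondrial share at 0.861 percentage points (exact sign-flip p = 0.25, again the smallest possible). That difference was 0.217 to 1.37 with a library left out, 0.517 without the rRNA genes and -0.00266 as a share of reads.

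The log2 ratio differences with a library left out were 0.49 to 0.60 for MT-ND6 over heavy strand protein genes, 0.17 to 0.28 for light over heavy strand tRNA, 0.56 to 0.61 for rRNA over protein, 0.36 to 0.44 for tRNA over protein, and -0.014 to 0.022 for MT-RNR2 over MT-RNR1. Of the nuclear genes, 14 to 18 were higher and 30 to 34 lower with a library left out. Removing the GC and length trend gave 9 higher and 34 lower, of which 27 were shared with the 34 lower without it, and turned TFAM to -0.13, LRPPRC to -0.0051 and TRIT1 to -0.027 on the log2 scale. The cause was not tested. Few reads limit most tRNA genes.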
